A study of Mus musculus with 3 samples.

Results

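The transcripts of 8 genes, Hmgcs1, Idi1, Fdps, Fdft1, Sqle, Lss, Cyp51 and Insig1, were followed in mouse bone marrow (BM) during treatment with LECT2 (leukocyte cell-derived chemotaxin 2), a protein secreted mainly by the liver. They were taken by their gene symbols from the 17250 gene names in the deposited tables. Fdps alone among the 8 had several rows, of which the one with the highest mean level was used. Of the 8 genes, 7 encode enzymes of cholesterol synthesis and Insig1 encodes a regulator of that pathway. None of them encodes a protein of cholesterol uptake. The mice were C57BL/6 males of 6 to 8 weeks, and recombinant LECT2 was injected under the skin every day at 300 μg/kg, over 3 or 5 days or not at all (0 days). Collection followed the last dose by 4 h, when BM cells were flushed from the femur, tibia, pelvis and humerus. There was 1 RNA-sequencing library for each time point, so no difference below has a replicate check. How many mice each library holds, and whether the 0 days mice received a vehicle injection, are not given in the sources used here.

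Cholesterol is built from acetyl-CoA through mevalonate. Hmgcs1 condenses acetyl units ahead of mevalonate, and Idi1 and Fdps carry the isoprene units on to farnesyl diphosphate. Fdft1 joins farnesyl units into squalene and so commits them to sterols, Sqle oxidises squalene, Lss closes the ring to lanosterol, and Cyp51 removes a methyl group from it. When cells run short of sterol, SCAP escorts SREBP-2 (the product of Srebf2) out of the endoplasmic reticulum, the protein is cut, and its released part switches on the genes of this pathway. INSIG1 holds SCAP back when sterol is plentiful, and its own gene is a target of SREBP. The genes of this pathway are known to move together when cellular sterol changes.

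The stretches ahead of 4 of these genes are shown because SREBP and its partners NF-Y and Sp1 are known to act there. Promoters of 5 of the 8 genes (Cyp51, Hmgcs1, Idi1, Insig1 and Lss) were in the table used, taken from RefSeq on GRCm38.p6. The sequences read 5′ to 3′ on the strand of the gene and stop before the first annotated transcript start in RefSeq or GENCODE. They lie at chr13:119690101-119690350 on the + strand for Hmgcs1, at chr5:28071162-28071362 on the + strand for Insig1, at chr10:76531355-76531564 on the + strand for Lss and at chr5:4104747-4104947 on the − strand for Cyp51. Capitals mark a match, on either strand, to the sterol regulatory element (searched as TCACNCCAC), the CCAAT box (CCAAT) or the GC box (GGGCGG).
Hmgcs1: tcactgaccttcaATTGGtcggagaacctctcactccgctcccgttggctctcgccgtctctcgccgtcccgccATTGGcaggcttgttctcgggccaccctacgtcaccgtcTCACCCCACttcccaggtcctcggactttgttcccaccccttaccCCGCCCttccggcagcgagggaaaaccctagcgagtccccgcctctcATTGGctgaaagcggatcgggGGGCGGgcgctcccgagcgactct
Insig1: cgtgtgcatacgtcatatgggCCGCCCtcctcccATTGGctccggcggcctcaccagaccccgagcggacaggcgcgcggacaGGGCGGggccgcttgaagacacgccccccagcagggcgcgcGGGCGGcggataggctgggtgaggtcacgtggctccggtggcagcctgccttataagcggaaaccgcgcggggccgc
Lss: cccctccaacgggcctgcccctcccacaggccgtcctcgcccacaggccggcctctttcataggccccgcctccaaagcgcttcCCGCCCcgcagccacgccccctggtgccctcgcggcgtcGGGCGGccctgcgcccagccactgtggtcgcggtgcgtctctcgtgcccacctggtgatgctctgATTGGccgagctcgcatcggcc
Cyp51: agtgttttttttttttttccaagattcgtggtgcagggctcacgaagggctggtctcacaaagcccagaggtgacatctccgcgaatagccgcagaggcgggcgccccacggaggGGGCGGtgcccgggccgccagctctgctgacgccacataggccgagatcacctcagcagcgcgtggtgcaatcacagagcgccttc

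In the 250 bases ahead of the RefSeq start, the letters of the sterol regulatory element were found in 1 of the 5 genes, Hmgcs1, as TCACCCCAC from 137 to 129 bases before the start. Of all 32851 promoters tabulated, 1.05% held them. A CCAAT box was present in 5 of 5 genes, against 33.8% of all promoters, and a GC box also in 5 of 5, against 32.7%. Hmgcs1 held 3 CCAAT matches and Insig1 held 3 GC matches. The CCAAT match of Cyp51 and the matches of Idi1 lie nearer the RefSeq start than the stretch that can be shown, past the first annotated transcript start. The 250 bases of the 5 genes were 51.2% (Idi1) to 73.6% (Lss) G or C. The shares of all promoters were not matched for this content. The 3 motifs did not overlap each other in the sequences shown. A match of letters is not a site of binding, which was not measured here, and a window without the letters says only that they are not in it.

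The level of each gene is given in RPKM, the reads on a gene divided by its length and by the reads of the library, so that levels of different genes can be compared. Insig1 was the most abundant of the 8 in each library, and 5 of the 7 enzymes lay between 6.45 and 19.9 RPKM at 0 days (the plot of levels by day). In sum the 8 genes reached 95.4, 84.0 and 82.8 RPKM in the 0, 3 and 5 days libraries. Of the 8 genes, 6 reached 1 RPKM at 0 days, and 7 did so at 3 and at 5 days. In the order of levels, Idi1 and Hmgcs1 differed by less than their counting error at 0 and 3 days, as did Fdft1 and Cyp51. At 5 days this held for Insig1 and Idi1, for Sqle and Fdft1, and for Fdft1 and Cyp51, and Sqle had moved from below Cyp51 to the level of Fdft1.

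**Figure D1:**
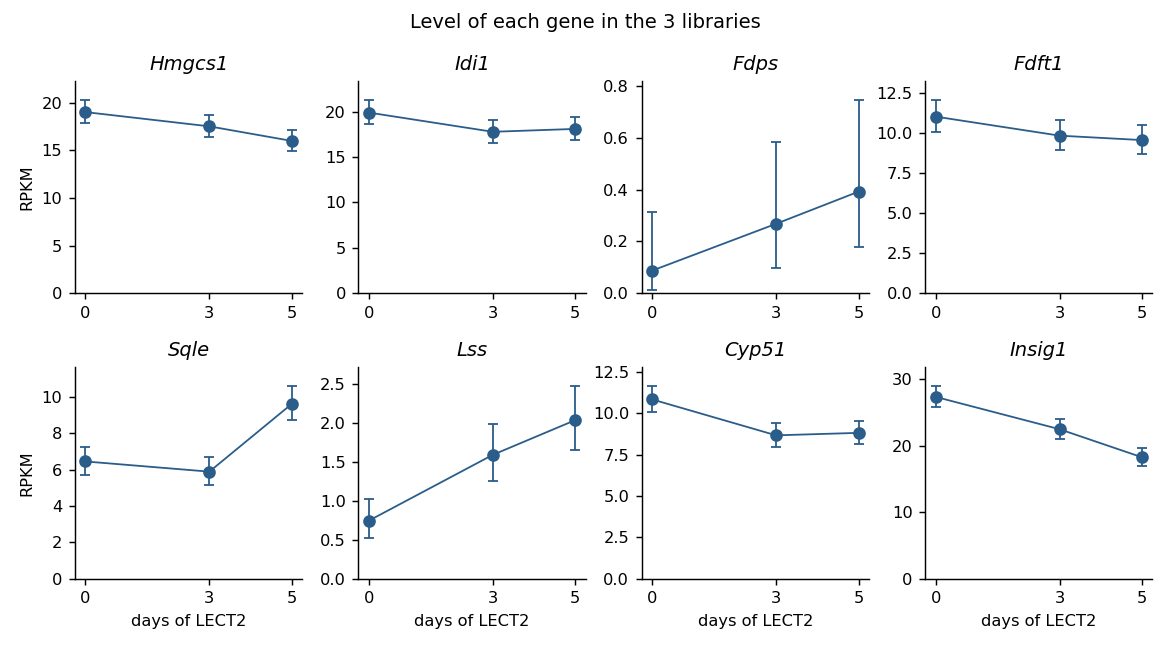
RPKM (linear axis from 0, scaled for each gene) of the 8 genes against days of LECT2, 1 library per day; points are the deposited values and bars the exact 95% Poisson interval of the reads. Insig1 steps down from 27.4 to 22.5 and 18.3, Sqle is level until 3 days and higher at 5 days, and Lss and Fdps lie far below the other genes.

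Each change is a log2 ratio of RPKM + 0.1, a scale on which changes of low genes come out too small. The interval beside it is a 95% exact one (Clopper-Pearson) for the ratio of the reads, scaled to the library totals. It covers counting error only, not differences between mice or libraries, since each time point has 1 library. Reads amplified by PCR and lacking molecular identifiers cannot be taken as independent molecules, so the interval may be too narrow even for counting error. The 8 genes had a median log2 ratio of −0.15 for 3 days and −0.17 for 5 days, both against 0 days, and of 0.02 for 5 against 3 days. For all 11144 genes that averaged 1 RPKM or more the medians were 0.10, 0.31 and 0.25. With TMM scaling, which sets most genes at no change, the medians of the 8 genes were −0.23, −0.48 and −0.20. The comparisons of 3 and of 5 days share the 0 days library.

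Of the 7 genes with at least 1 RPKM, Lss was the only one to pass 2-fold in a comparison, at 5 against 0 days, and Fdps lay under that minimum. Among genes with at least 1 RPKM in either library, 0 of 7 were at least 2-fold higher at 3 days and 0 of 7 at least 2-fold lower, where 4.08% and 2.41% of all genes were. At 5 days against 0 days 1 of 7, Lss, was higher and 0 of 7 lower, against 15.5% higher and 5.91% lower among all genes. At 5 against 3 days the counts were 0 higher and 0 lower of 7, with 1.95% and 3.45% among all genes. Of all genes past 2-fold, 62.9% were higher at 3 days, but 49.0% with TMM scaling. At 5 days the share was 72.4%, and 41.3% with TMM scaling. At 5 against 3 days it was 36.1% and 10.6%.

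At the start of the pathway, Hmgcs1, the synthase that condenses acetyl units, had 969, 871 and 814 reads in the 0, 3 and 5 days libraries, or 19.0, 17.5 and 16.0 RPKM. The 0 days library was highest and the 5 days library lowest. The log2 ratio came to −0.12 at 3 days (interval −0.25 to 0.02) and −0.25 at 5 days (interval −0.39 to −0.11). At 3 days the difference was thus within counting error, and at 5 days it lay outside it. Idi1, the isomerase of the isoprene units, had 890, 776 and 809 reads, or 19.9, 17.8 and 18.1 RPKM. Its ratio came to −0.16 at 3 days (interval −0.30 to −0.02) and −0.14 at 5 days, where the interval ran from −0.28 to 0.00. The difference of Idi1 thus lay outside counting error at 3 days and within it at 5 days. With TMM scaling the ratio was −0.20 for Hmgcs1 at 3 days and −0.44 for Idi1 at 5 days. The 2 calls within counting error thus hold for scaling to the library totals. In GENCODE M21, 21.3% of the 50-base words of the longest Idi1 transcript also occurred in transcripts of other genes (Gm13502, Gm35570 and Gm7654 among them), and how the authors counted such reads is not given in the sources used here.

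Fdps, the synthase of farnesyl diphosphate, was close to absent from the tables. The row used (1478 bases) held 2, 6 and 9 reads, or 0.0872, 0.268 and 0.392 RPKM, and a second row of 1262 bases held 4, 4 and 6. At 0 days it was at the floor of 3 reads, so no fold is given, and the interval of the log2 ratio of its reads at 5 days ran from −0.10 to 5.42. Such low values were usual for genes split over rows in these tables. Of 541 rows whose name occurs more than once, 83.5% had a mean under 1 RPKM, against 34.9% of the 17018 rows with a name of their own. Of the 50-base words of the longest Fdps transcript, 11.7% also occurred in other genes. Idi1 and Fdft1, with 21.3% and 10.9% of their words in other genes, had 890 and 494 reads at 0 days. The level of Fdps is uncertain, and whether its reads were lost in counting was not tested.

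Fdft1, which makes squalene, had 494, 430 and 428 reads, or 11.0, 9.85 and 9.57 RPKM. Its log2 ratio came to −0.16 at 3 days (interval −0.35 to 0.02) and −0.20 at 5 days (interval −0.40 to −0.02). Scaled to the library totals, the 2 treated libraries lay within counting error of each other, with a ratio of −0.04 between 5 and 3 days. With TMM scaling that ratio was −0.26. Fdft1 shared 10.9% of its 50-base words with another gene, Gm6781. Cyp51, the lanosterol demethylase, had 733, 572 and 596 reads, or 10.8, 8.68 and 8.83 RPKM. Its ratio of −0.32 at 3 days (interval −0.48 to −0.16) compares with −0.29 at 5 days (interval −0.46 to −0.14). The lower level of Cyp51 was present by 3 days. Its ratio between 5 and 3 days was 0.02, but −0.20 with TMM scaling.

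Sqle, the epoxidase that oxidises squalene, did not follow Hmgcs1. It had 275, 245 and 410 reads, or 6.45, 5.89 and 9.62 RPKM. The 0 and 3 days libraries were close and the 5 days library stood above both. The log2 ratio was −0.13 at 3 days (interval −0.39 to 0.12), 0.57 at 5 days (interval 0.35 to 0.80) and 0.70 between 5 and 3 days (interval 0.48 to 0.94). Among the 11144 genes, 65.0% had a lower ratio than Sqle at 5 against 0 days and 90.1% at 5 against 3 days. No 50-base word of Sqle, Hmgcs1 or Lss occurred in another gene.

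Lss, the cyclase that forms lanosterol, had 37, 77 and 101 reads, or 0.747, 1.59 and 2.04 RPKM. It was lowest at 0 days and higher in both treated libraries. Its ratio came to 1.00 at 3 days (interval 0.51 to 1.70) and 1.34 at 5 days (interval 0.89 to 2.03). At 3 days the pseudocount decided its place at the 2-fold line, since with 0.1 RPKM added the change was 99.9%, and with 0.01 RPKM added the log2 ratio was 1.08. Between 5 and 3 days the interval, −0.09 to 0.80, included 0. Lss passed the minimum of 1 RPKM through its treated libraries, and its few reads leave a wide interval. Among all genes, 93.6% had a lower ratio than Lss at 5 days.

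Insig1, which retains SCAP in the endoplasmic reticulum, had 1133, 909 and 756 reads, or 27.4, 22.5 and 18.3 RPKM. Each library lay below the one of the earlier time point. The ratio was −0.28 at 3 days (interval −0.41 to −0.16), −0.58 at 5 days (interval −0.72 to −0.45) and −0.30 between 5 and 3 days (interval −0.44 to −0.16). At 5 days Insig1 was 33.1% lower than at 0 days, and 11.8% of all genes had a lower ratio. It was the lowest ratio of the 8 genes at 5 days.

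**Figure D2:**
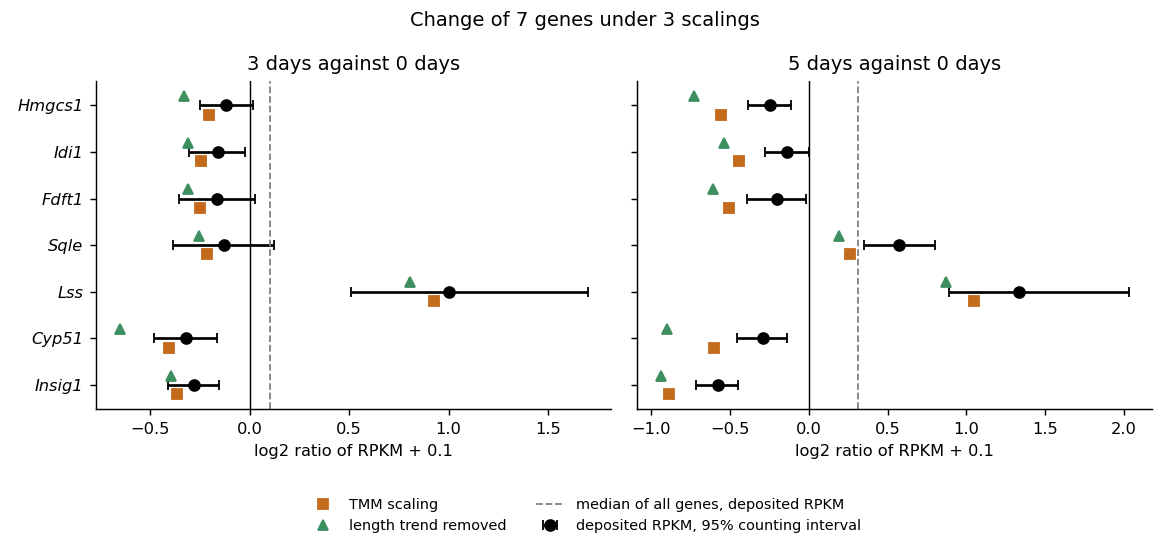
Log2 ratio of RPKM + 0.1 (horizontal axis) for 7 genes at 3 and at 5 days against 0 days; circles are the deposited RPKM with the 95% counting interval, squares use TMM scaling, triangles have the length trend removed, and the dashed line is the median of all genes (0.10 and 0.31). Fdps is not drawn because it was at the floor at 0 days; at 5 days Sqle and Lss lie to the right of 0 and the other 5 genes at or to the left of it in each scaling.

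A ratio of 2 genes within a library does not depend on how libraries are scaled to each other. Set against Hmgcs1, Sqle stood at 0.339, 0.336 and 0.602, a change of 1.77 times between 0 and 5 days (interval 1.48 to 2.13). Lss stood at 0.0393, 0.0910 and 0.128, a change of 3.25 times (interval 2.18 to 4.93). Both thus differed from Hmgcs1 in their change by more than counting error. Insig1 stood at 1.44, 1.29 and 1.14, a change of 0.794 times (interval 0.695 to 0.907). For the other 3 enzymes the interval at 5 days included 1, with changes of 1.08 times for Idi1 (interval 0.945 to 1.24), 1.03 times for Fdft1 (interval 0.876 to 1.21) and 0.968 times for Cyp51 (interval 0.837 to 1.12). At 3 days Lss alone of these 6 genes had an interval clear of 1, with a change of 2.31 times (interval 1.53 to 3.56).

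The 3 libraries held 15523952, 15146983 and 15514673 reads on genes. They differed in the summed levels of cell type markers. The summed level of 8 late neutrophil markers was 138916, 107689 and 38201 RPKM at 0, 3 and 5 days, and 8 of 8 were at least 2-fold lower at 5 days. The 14 cell cycle genes summed to 1117, 1112 and 1794 RPKM. Their median ratio was 0.73 at 5 days (0.42 with TMM scaling and 0.29 with the length trend removed). The 8 macrophage markers summed to 345, 492 and 669 RPKM, of which Mpeg1 made up 127 at 0 days and 307 at 5 days, and 6 of 8 were above a ratio of 0 at 5 days. The 8 erythroid markers summed to 2220, 2054 and 1042 RPKM, of which Hbb-b1 made up 1696 at 0 days and 527 at 5 days. From the deposited RPKM 5 of 8 were above 0 at 5 days, with a median of 0.09 (−0.21 with TMM scaling). The 4 promyelocyte markers summed to 2101, 1974 and 3475 RPKM, of which Elane made up 1142 at 0 days and 1451 at 5 days. Of these, 1 of 4 was above 0 at 3 days and 4 of 4 at 5 days. The 8 B cell markers summed to 1910, 1556 and 1405 RPKM, of which Cd79a made up 827 at 0 days and 532 at 5 days. At 5 days 7 of 8 were below 0, and Rag1 was above it with a ratio of 1.21. The 6 T and NK cell markers summed to 161, 95.8 and 137 RPKM, of which Nkg7 made up 120 at 0 days and 114 at 5 days, and their median ratio at 5 days was −0.60. The 4 megakaryocyte markers summed to 29.2, 15.4 and 24.1 RPKM. Of 5 hepatocyte markers 1 had a row, Alb, with 1, 0 and 0 reads. The markers of BM cells were thus present in each library. In such bulk samples fewer cells of a type and less RNA per cell cannot be told apart, and the part of these shifts in the values of the 8 genes was not tested.

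Longer genes had higher ratios at 5 days (the plot of change against gene length). The 7 genes other than Fdps are 2667 to 4353 bases long. The 3258 genes of that length averaging 1 RPKM or more showed median ratios of 0.23 (3 days), 0.50 (5 days) and 0.30 (5 against 3 days), and 80.4% were above 0 at 5 days. With the trend on length removed, the 5 days ratio was −0.73 for Hmgcs1, −0.54 for Idi1, −0.61 for Fdft1, −0.90 for Cyp51 and −0.94 for Insig1. These 5 genes were thus further below genes of their own length than below their own level at 0 days. It was 0.19 for Sqle and 0.87 for Lss, both nearer to 0 than before and Lss no longer past 2-fold. With TMM scaling Sqle had a ratio of 0.26 and Lss of 1.05. Why the ratio moved with gene length was not tested.

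**Figure D3:**
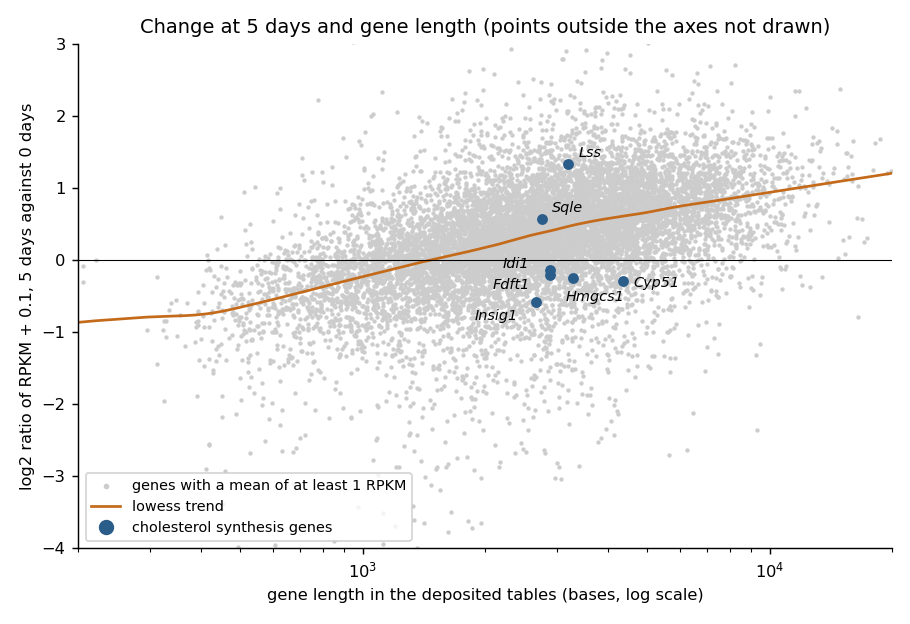
Log2 ratio of RPKM + 0.1 at 5 against 0 days (vertical axis) against gene length in bases (horizontal log axis); grey points are genes averaging 1 RPKM or more, the line is their lowess trend and large points are 7 of the cholesterol synthesis genes. Hmgcs1, Idi1, Fdft1, Cyp51 and Insig1 lie below the line, and Sqle and Lss above it.

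The other 14 enzymes of the pathway lay on both sides of 0. Their median ratio was −0.12 at 3 days and 0.09 at 5 days, which with TMM scaling was −0.21. At 5 days 0 of 14 were at least 2-fold higher and 1 of 14 lower, against 15.5% and 5.91% of all genes. Msmo1, the methyl sterol oxidase listed as Sc4mol, was the lowest at 5 days, with 28.7, 22.5 and 13.7 RPKM and a ratio of −1.06 (interval −1.24 to −0.89). Pmvk, a kinase of mevalonate phosphate, was the lowest at 3 days, with 19.0, 11.3 and 10.7 RPKM and a ratio of −0.74. Nsdhl, a dehydrogenase of the steps after Cyp51, was the highest at both times, with 5.52, 8.04 and 10.1 RPKM and ratios of 0.53 and 0.86. Picked out after its values were seen, Dhcr7, a reductase at the end of the pathway, stood at 7.68, 6.89 and 11.8 RPKM and had its highest level at 5 days, as Sqle did. Its ratio between 5 and 3 days was 0.77, and 0.50 with the length trend removed.

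For the 6 genes that control SREBP the median ratios were 0.44 and 0.79 at 3 and 5 days, and 0.11 and 0.18 with the length trend removed. Srebf2 stood at 26.6, 35.6 and 39.2 RPKM, a ratio of 0.42 at 3 days (interval 0.33 to 0.51) and 0.56 at 5 days (interval 0.48 to 0.65), which was −0.07 with the length trend removed. Scap stood at 11.8, 16.1 and 20.7 RPKM, with ratios of 0.45 and 0.81. Mbtps2, a protease that releases SREBP, was the only one of 5 with at least 1 RPKM to pass 2-fold at 5 days, against 15.5% of all genes, with a ratio of 1.04 (0.39 with the length trend removed). Insig2, the relative of Insig1, had 1, 5 and 8 reads.

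For cholesterol uptake and its transport within the cell, 9 genes were analysed. The median ratio was 0.50 at 3 days and 0.81 at 5 days, or 0.22 at 5 days with the length trend removed. At 5 days 3 of 7 genes with at least 1 RPKM were at least 2-fold higher and 0 of 7 lower, against 15.5% and 5.91% of all genes. Lrp1, an endocytic receptor, stood at 2.88, 7.83 and 15.4 RPKM, with a ratio of 2.38 at 5 days (interval 2.30 to 2.54) that was 1.29 with the length trend removed. Scarb1, the receptor for high-density lipoprotein, stood at 18.7, 28.1 and 56.0 RPKM, a ratio of 1.58, and Lipa, the lysosomal lipase, had a ratio of 1.02, which was 0.59 with the length trend removed and so no longer past 2-fold. Npc2, which moves cholesterol out of lysosomes, had the lowest ratio, 0.28, which was −0.03 with TMM scaling. Of the 8 macrophage markers, 6 also had a ratio above 0 at 5 days, and their part in these values was not tested.

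The 6 genes of the isoprenoid branch, which draws on the products of Idi1 and Fdps, had median ratios of 0.19 at 3 days and 0.45 at 5 days, which were 0.10 and 0.14 with TMM scaling and 0.05 and 0.19 with the length trend removed. At 5 days 1 of 5 genes with at least 1 RPKM was at least 2-fold higher, against 15.5% of all genes. This was Pggt1b, a subunit of a prenyltransferase, at 2.35, 4.75 and 6.17 RPKM and a ratio of 1.35 (0.98 with the length trend removed). The lowest of these 5 was Dhdds, with a ratio of 0.39 (−0.06 with the length trend removed), and Idi2, the relative of Idi1, had 3, 0 and 0 reads. The 10 fatty acid genes controlled by SREBP had medians of 0.14 and 0.79. The first was −0.19 and the second 0.11 with the length trend removed. At 5 days 2 of 9 with at least 1 RPKM, Fasn and Acaca, were at least 2-fold higher and 0 of 9 lower. Among all genes 15.5% were higher and 5.91% lower. With the length trend removed neither Fasn nor Acaca was past 2-fold, with ratios of 0.76 and 0.68. Fasn, the fatty acid synthase, had the highest ratio, 1.70 at 5 days (4.10, 6.93 and 13.5 RPKM), and Scd1, a desaturase, the lowest, −0.49 (42.5, 44.6 and 30.2 RPKM).

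The list of LXR, efflux and storage genes, of which 7 of 8 had a row, had medians of 0.17 and −0.02, which were 0.09 and −0.31 with TMM scaling. Ch25h was not analysed here. Soat1, which esterifies cholesterol, had the highest ratio, 1.11 at 5 days (11.6, 18.7 and 25.1 RPKM), and Abcg1, an exporter of cholesterol, the lowest, −0.64 (12.8, 13.3 and 8.16 RPKM). At 5 days 1 of 7, Soat1, was at least 2-fold higher and 0 of 7 lower, and with the length trend removed its ratio was 0.46. These shares stand beside the 15.5% of all genes that were higher. With the length trend removed the medians of the 6 lists at 5 days lay between −0.22 and 0.22, and that of the 8 cholesterol synthesis genes was −0.57.

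**Figure D4:**
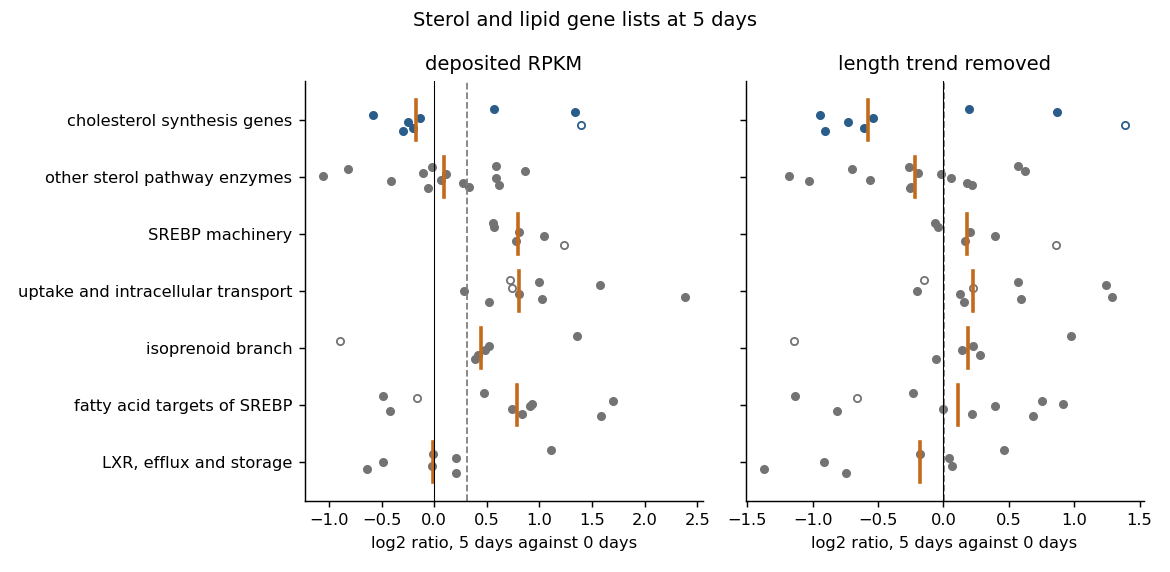
Log2 ratio of RPKM + 0.1 at 5 against 0 days for each gene of 7 lists, from the deposited RPKM (left) and with the length trend removed (right); filled points have at least 1 RPKM in either library, open points less, bars are list medians and the dashed line is the median of all genes. The median of the cholesterol synthesis genes is −0.17 on the left and −0.57 on the right, the lowest of the 7 lists in both. The lists were chosen with earlier results of these data known, so this order is a description only.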

How the data were processed

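RNA from flushed BM cells was made into libraries with the TruSeq kit (oligo(dT) selection) and sequenced on an Illumina HiSeq. The study's methods name Cufflinks for quantitation and the submitters' processing notes name build mm8; the aligner and the counting rule are not given in the sources used here. For each gene the authors deposited whole read counts and the RPKM of each library, in 3 pairwise tables. The RPKM equalled the count divided by gene length and by the total count, within a relative tolerance of 1e-06, except in 18 rows at 0 days and 14 at 3 days. Genes without reads, listed by the authors at 0.01 RPKM, were set to 0. The authors' log2 ratios, P values and false discovery rates were not used.

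Log2 ratios used a pseudocount of 0.1 RPKM, and 2-fold changes were counted among genes with at least 1 RPKM in either library. With 1 library per time point, 15146983 to 15523952 reads each, no test was possible. The genes and lists were chosen with earlier results of these data known. Besides all 8 genes, the rule for named genes took the highest and lowest of each list, Srebf2, Scap, and the 5 unlisted genes nearest in ratio. Dhcr7, and the genes past 2-fold in lists with few of them (Scarb1, Lipa, Acaca), were named after their values were seen, as were single markers. Alternatives were pseudocounts of 1 and 0.01, TMM (edgeR 4.0.16), median-of-ratios (DESeq2 1.42.0), totals without the 100 most abundant genes, removal of the length trend (lowess, span 0.3, statsmodels 0.14.6), summed rows, other minima and other folds. Some genes of the lists are not reported here. Steps were tested on simulated data. Motifs and shared words were searched in Python 3.11.15.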

Additional observations from a re-analysis of the deposited data

How the results depend on the processing

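The median log2 ratio of the 8 genes at 5 against 0 days, −0.17 from the deposited RPKM, was −0.48 with TMM scaling, −0.47 with median-of-ratios scaling, −0.57 with the length trend removed and −0.37 without the 100 most abundant genes. At 5 against 3 days, 0.02 became −0.20, −0.19 and −0.26 with TMM scaling, median-of-ratios scaling and the length trend removed. Without Fdps and Lss, the pair under 1 RPKM at 0 days (a choice made after seeing the data), medians were −0.16 at 3 days, −0.23 at 5 days and −0.0082 at 5 against 3 days. The count of the 8 genes at least 2-fold higher at 3 days, 0, was 1 with a pseudocount of 0.01 and 1 at 1.5-fold, and at 5 against 3 days it was 1 at 1.5-fold. At 5 days the count of 1 was 0 with a pseudocount of 1, 0 with the length trend removed, 0 with a minimum of 5 RPKM, 0 at 4-fold and 2 with no minimum. The fatty acid list at 3 days had a median of 0.14, and of −0.19 with the length trend removed. Over all genes, 462 were at least 2-fold higher and 273 lower at 3 days, against 190 and 120 with a pseudocount of 1, and 293 and 205 with the length trend removed. At 5 days 1786 were higher and 680 lower, against 1140 and 481 with a pseudocount of 1, 816 and 1162 with TMM scaling, 842 and 1142 with median-of-ratios scaling, 581 and 875 once the length trend was removed and 1086 and 975 without the 100 most abundant genes. At 5 against 3 days 222 were higher and 393 lower, against 52 and 285, 66 and 556, 68 and 551, 75 and 561, and 115 and 472 in the same order. No paired analysis was possible because each time point has 1 library. Depth limits Fdps and Lss most, with 2 and 37 reads at 0 days.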

Other observations

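Of 8700 genes with at least 5 RPKM in 1 library, the 5 unlisted genes whose pair of log2 ratios (3 and 5 days against 0 days) lay nearest to the median pair of the 8 cholesterol synthesis genes were Nxn, Ubxn4, Actr6, Chchd8 and Aspscr1. Ubxn4 stood at 30.7, 28.0 and 27.2 RPKM and Aspscr1 at 38.7, 35.3 and 34.8 RPKM at 0, 3 and 5 days. The likeness rests on 3 libraries, and 138 genes lay within a distance of 0.1 on the log2 scale.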
